A study of Homo sapiens with 54 samples.

Results

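*TRA2A* was silenced in A549 cells, a line derived from a human lung adenocarcinoma, and its transcriptome was compared with that of the same cells carrying control guides. The comparison rests on 6 of the 54 RNA-seq libraries of the study, 3 labelled *TRA2A* KD and 3 labelled Control KD, and on every gene name with at least 1 TPM in at least 4 of the 12 A549 libraries, which left 16405 of 55906 names. TPM (a transcript abundance scaled to the library) is the share of a library that a gene takes after division by transcript length. The cells of all groups stably carried Zim3-dCas9, a Cas9 without nuclease activity fused to a repressor domain (CRISPRi), delivered by lentivirus and kept as a sorted population rather than as 1 clone. Control KD cells received guides to control loci, *TRA2A* KD cells guides to *TRA2A*, *TRA2B* KD cells guides to *TRA2B* and *TRA2A/B* DKD cells guides to both, and all were collected on day 5 after transduction. The same 4 groups existed in NCI-H23, another lung adenocarcinoma line, whose values were normalized by themselves and are set beside those of A549 without a test between the lines.

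TRA2A and TRA2B are paralogous RNA-binding proteins with arginine- and serine-rich domains. They bind purine-rich sequences in exons and promote the inclusion of these exons during splicing. Both genes contain a so-called poison exon, whose inclusion leads to decay of the transcript and through which TRA2 proteins limit their own and each other's level. A549 cells carry an inactivating *KEAP1* mutation and therefore a high activity of NRF2, the transcription factor of the antioxidant response.

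*TRA2A* (ENSG00000164548.12) lies on the minus strand at chr7:23504780-23532041 (GRCh38, Gencode v44), and *TRA2B* (ENSG00000136527.19) on the minus strand at chr3:185914558-185938103. The CRISPRi guides against *TRA2A* listed by the study are shown because they define the perturbation, with the 12 bases next to the PAM in capitals. Which of them the A549 libraries carried was not given in the sources used here.
TRA2A-isg1: agcctgcgACCGAGTGGGAG
TRA2A-isg2: cgctccacTCCACTCCCACT
Guide isg1 matched chr7:23531952-23531971 on the minus strand, 80 bases downstream of the *TRA2A* start, and isg2 matched chr7:23531940-23531959 on the plus strand, 92 bases downstream of it. Both sites lie in the 5′ UTR within exon 1. Guide isg2 had another exact match at chr1:52163440-52163459, and isg1 matched chr1:52163452-52163471 with 2 mismatches. Both of these sites lie inside *ZFYVE9*, 21.4 kb from its start.

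The 6 libraries summed to between 928908 and 955559 TPM, and TPM keep no record of the number of reads. Control KD replicate 3 stood apart. Its log2 values correlated with those of the other 5 libraries at r = 0.835 to 0.848, against 0.894 to 0.938 among the other 5, and cytosolic ribosomal protein genes took 8.52% of it against 11.8% to 13.6% of the others. Mitochondrially encoded RNA took 15.4% to 23.8% of the 6 libraries. Of 17 markers of lung epithelium or A549, 13 passed the filter, and 3 were under 1 TPM in all 6 libraries (*AQP5* at 0). The sum over the 17 ranged from 16217 to 17765 TPM in Control KD and from 16667 to 17954 TPM in *TRA2A* KD. Markers of other cells were low in both groups, with sums of 12.7 to 27.4 TPM over 9 fibroblast, 0.0651 to 1.72 TPM over 7 endothelial (*VWF* and *KDR* at 0) and 3.13 to 8.79 TPM over 8 leukocyte markers (*CD3E*, *MS4A1* and *NKG7* at 0).

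*TRA2A* was measured at 69.5, 79.4 and 76.3 TPM in Control KD and at 5.82, 5.31 and 10.4 TPM in *TRA2A* KD. The groups did not overlap, and the knockdown mean was 9.56% of the control mean. Here and below, TPM and percentages of the control mean are as deposited, whereas fold changes and p come from values scaled between libraries. The log2 fold change was -3.28 (SE 0.219, adjusted p = 0.000112, limma with Benjamini-Hochberg adjustment over all 16405 genes). The exact two-sided permutation p was 0.1, the smallest that 3 libraries against 3 allow. In NCI-H23, *TRA2A* went from 102, 107 and 105 TPM to 6.55, 7.01 and 6.97 TPM (log2 fold change -3.90, adjusted p = 1.38e-10). In bulk RNA, fewer cells carrying the knockdown and less *TRA2A* RNA in each cell cannot be told apart.

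*TRA2B* was measured at 138, 140 and 134 TPM in Control KD and at 153, 178 and 157 TPM in *TRA2A* KD. All 3 knockdown libraries lay above the 3 controls, but the difference did not pass the test (log2 fold change 0.39, SE 0.146, adjusted p = 0.386, exact two-sided permutation p = 0.1). In NCI-H23 the paralog was at 80.3, 103 and 93.8 TPM in controls and at 136, 129 and 143 TPM after *TRA2A* KD, with a log2 fold change of 0.58 that passed the test (adjusted p = 0.0237). In A549 *TRA2B* KD, *TRA2A* was at 94.9, 96.7 and 101 TPM, above the 3 controls without passing the test (log2 fold change 0.47, adjusted p = 0.377).

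**Figure D1:**
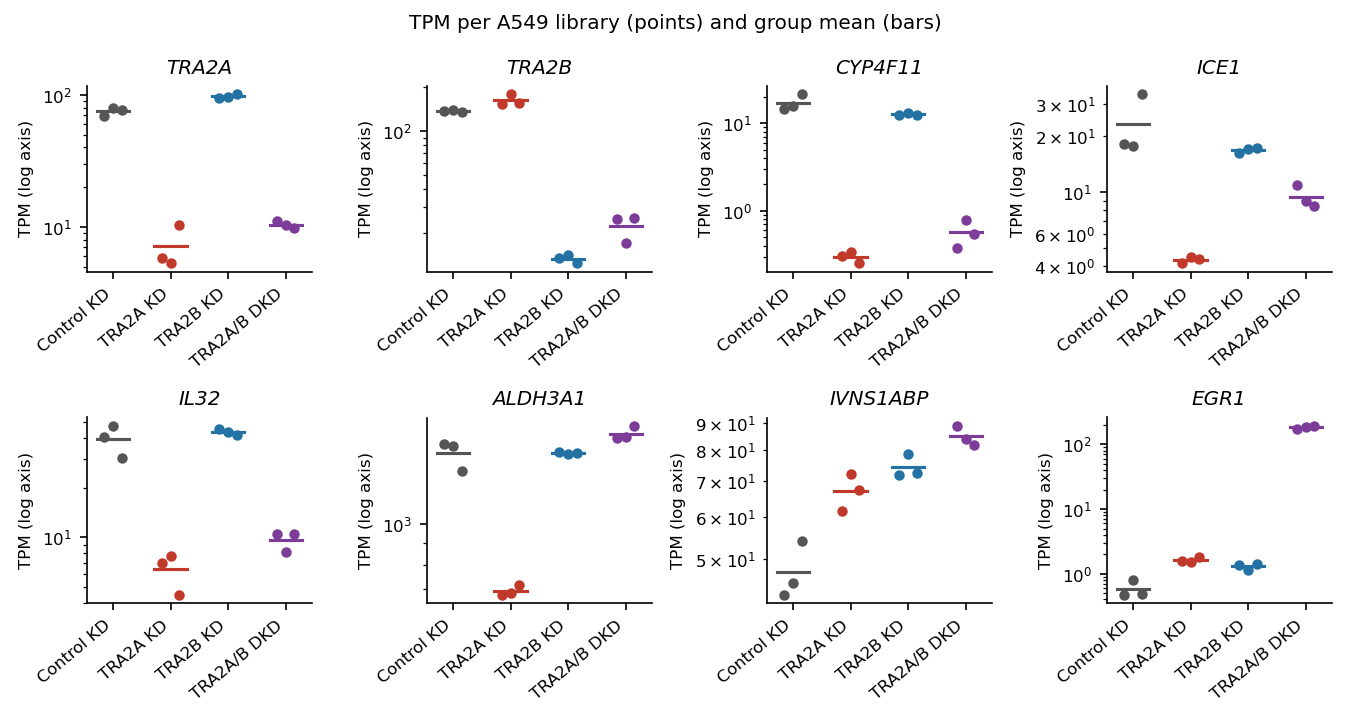
TPM of 8 genes on log axes in the 12 A549 libraries, with 1 point per library and a bar at the mean of each group of 3. *TRA2A*, *CYP4F11*, *ICE1* and *IL32* are low in *TRA2A* KD and in *TRA2A/B* DKD, *ALDH3A1* is low in *TRA2A* KD, and *EGR1* lies between 1.54 and 1.82 TPM in *TRA2A* KD and between 176 and 193 TPM in *TRA2A/B* DKD.

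Few genes changed. Genes were counted as DEGs when the adjusted p was under 0.05 and the log2 fold change lay beyond 1 in either direction, and these numbered 19 of 16405 (0.116%), of which 3 rose (0.0183%) and 16 fell (0.0975%). Without the minimum fold change 34 genes passed (0.207%), 8 higher (0.0488%) and 26 lower (0.158%), and 32 of the 34 were protein-coding. The 3 *TRA2A* KD libraries lay outside the range of the 3 controls for all 34. These genes were chosen by p from the same libraries, so their separation adds no support. Over all genes, 482 (2.94%) lay wholly above the controls and 1893 (11.5%) wholly below in TPM as deposited, without scaling between libraries. In the limma fit of scaled values, 945 genes (5.76%) were higher and 906 (5.52%) lower at an unadjusted p under 0.05. *CYP4F11* had the smallest p and *TRA2A* the next.

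**Figure D2:**
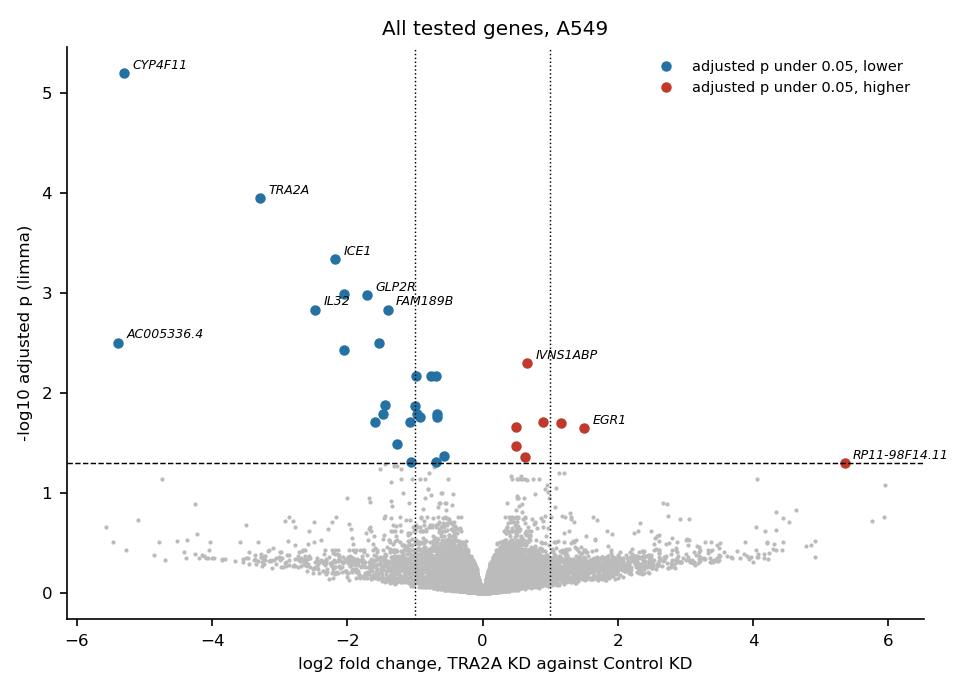
Log2 fold change of *TRA2A* KD against Control KD (x axis) and -log10 of the adjusted p (y axis) of the 16405 tested genes in A549. The 26 lower genes are in blue and the 8 higher ones in red, and the dashed and dotted lines mark an adjusted p of 0.05 and a log2 fold change of -1 and 1.

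The number of calls depended on how the spread was estimated. The 12 A549 libraries shared 1 estimate, and with only the 6 libraries compared in the fit *CYP4F11* alone was called and *TRA2A* had an adjusted p of 0.0939. With library weights, which gave Control KD replicate 3 a weight of 0.0826, there were 207 DEGs. A gene that was not called is therefore not shown to be unchanged. Without Control KD replicate 2 there were 54 DEGs (30 higher and 24 lower), against 13 to 26 when any of the other 5 libraries was left out. All 34 genes kept their direction in every alternative tried, 31 passed without Control KD replicate 3, where 71 genes passed in all (27 higher and 44 lower), and 14 passed whichever of the 6 libraries was left out. Leaving out Control KD replicate 1 lost 19 of the 34 calls, leaving out *TRA2A* KD replicate 1, 2 or 3 lost 18, 17 and 18, and Control KD replicate 2 lost 2. With a replicate block 12 of the 34 calls were lost, those of the higher genes *AP1S2*, *CDC42EP1*, *EGR1*, *PFKFB3*, *RETSAT* and *UCP3* and of the lower genes *ALDH3A1*, *C1orf116*, *CYP1B1*, *GIT2*, *LASP1* and *ZFYVE9*.

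The 26 lower genes are described by known role, a grouping made by hand after the genes were seen, and metabolic enzymes come first. *CYP4F11*, a cytochrome P450 that hydroxylates fatty acids (chr19:15912367-15934867, minus strand), was at 14.6, 15.7 and 21.3 TPM in Control KD and at 0.305, 0.338 and 0.253 TPM in *TRA2A* KD. It fell to 1.74% of the control mean, a smaller remainder than that of *TRA2A* itself (log2 fold change -5.30, SE 0.252, adjusted p = 6.28e-06). *ALDH3A1*, an aldehyde dehydrogenase and the most abundant of the lower genes, was at 1540, 1526 and 1331 TPM in Control KD and at 679, 687 and 717 TPM in *TRA2A* KD (log2 fold change -0.93, SE 0.131, adjusted p = 0.0174). Its call was lost in 7 of 15 alternatives, among them the replicate block and the omission of Control KD replicate 1 or of any *TRA2A* KD library.

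*MGST1*, a membrane-bound glutathione transferase, was at 443, 545 and 420 TPM in Control KD and at 190, 240 and 174 TPM in *TRA2A* KD (log2 fold change -1.08, adjusted p = 0.0195). *SULT2B1*, which adds sulfate to cholesterol and related sterols, went from 29.2, 35.5 and 22.9 TPM to 6.38, 5.98 and 6.25 TPM (log2 fold change -2.05, adjusted p = 0.00371). In both genes the lowest control lay well above the highest knockdown library. *MBOAT7*, an acyltransferase of phosphatidylinositol, fell to 53.2% of the control mean (log2 fold change -0.77, adjusted p = 0.00678) and *CYP1B1*, a cytochrome P450 of xenobiotics and steroids, to 60.2% (-0.57, adjusted p = 0.0422). The call of *CYP1B1* was lost in 9 of 15 alternatives and that of *MGST1* in 5, against 1 each for *SULT2B1* and *MBOAT7*.

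Some of the lower genes encode secreted or adhesion proteins, again grouped by hand, while 0 of 43 genes of the matrix and integrin list and 0 of 15 of the cytokine list passed. *IL32*, a proinflammatory cytokine, was at 40.7, 47.4 and 30.4 TPM in Control KD and at 6.99, 7.71 and 4.47 TPM in *TRA2A* KD, a log2 fold change of -2.48 (SE 0.238, adjusted p = 0.00146). *VTN*, the adhesive plasma and matrix protein vitronectin, was at 11.9, 12.7 and 20.1 TPM and at 3.09, 2.77 and 3.40 TPM (log2 fold change -2.05, SE 0.182, adjusted p = 0.00102). Control KD replicate 3 was the highest of the 6 libraries for *VTN* and the lowest of the controls for *IL32*, and both genes passed without it.

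Smaller changes were seen for *CPA4*, a secreted carboxypeptidase (33.8% of the control mean), *SDC4*, the transmembrane proteoglycan syndecan-4 (45.1%), and *LGALS3BP*, a secreted glycoprotein that binds galectins (55.9%). The focal adhesion and cytoskeleton genes *TNS4* (tensin-4), *LASP1* and *GIT2* were at 44.2%, 55.5% and 56.1% of the control mean. With scaled values their log2 fold changes were -0.99, -0.69 and -0.67, and that of *SDC4* was -0.998. The adjusted p of the genes in this paragraph ranged from 0.00676 for *TNS4* and *LGALS3BP* to 0.0491 for *LASP1*, which did not pass without Control KD replicate 3 (adjusted p = 0.0545).

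*ICE1* encodes a scaffold of the little elongation complex, which assists RNA polymerase at small nuclear RNA genes, from which the RNA parts of the spliceosome are made. Its values were 18.3, 17.7 and 33.6 TPM in Control KD and 4.16, 4.51 and 4.37 TPM in *TRA2A* KD (log2 fold change -2.18, SE 0.173, adjusted p = 0.00046). The knockdown libraries differed little from each other, and the spread lay in the controls, where replicate 3 was the highest.

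The receptor *GLP2R*, which binds glucagon-like peptide 2, was at 21.7, 17.6 and 23.8 TPM in Control KD and at 6.76, 5.14 and 5.30 TPM in *TRA2A* KD (log2 fold change -1.71, SE 0.155, adjusted p = 0.00105). *CACNA1G*, a subunit of T-type calcium channels, fell to 28.6% of the control mean (log2 fold change -1.59, adjusted p = 0.0195). *LGSN*, which encodes lengsin, a lens protein related to glutamine synthetase, was at 6.87, 7.72 and 8.92 TPM and at 1.94, 2.99 and 2.26 TPM (log2 fold change -1.54, adjusted p = 0.00312). *FAM189B* went from 19.98, 20.1 and 28.4 TPM to 8.18, 8.40 and 6.45 TPM (log2 fold change -1.40, adjusted p = 0.00146).

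The other lower genes were *MYRF*, a membrane-bound transcription factor known from myelination (55.7% of the control mean), *MOB3A* (36.5%, adjusted p = 0.0512 without Control KD replicate 3), *C1orf116* (30.7%), *C15orf52* (45.8%, log2 fold change -0.98) and *ZFYVE9*. *ZFYVE9* encodes SARA, an anchor of SMAD proteins in TGF-beta signalling, and spans the second match of isg2. It was at 6.91, 6.41 and 11.8 TPM in Control KD and at 3.37, 3.65 and 3.31 TPM in *TRA2A* KD (log2 fold change -1.06, SE 0.178, adjusted p = 0.0491). It was called in 3 of 15 alternatives, and the part of the guide match in this result was not tested.

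*AC005336.4*, a clone name with no entry in the annotation used here, was at 3.95, 5.13 and 12.7 TPM in Control KD and at 0.0578, 0.103 and 0 TPM in *TRA2A* KD. Its fitted log2 fold change of -5.39 depends on the pseudocount of 0.1 TPM, and it came to -2.78 with the alternative that moved it most. By position, 7 of the 25 lower genes with coordinates, *TRA2A* included, lay on chromosome 17 (28%), where 6.29% of all tested genes with coordinates lay. These were *ALDH3A1*, *CACNA1G*, *GLP2R*, *LASP1*, *LGALS3BP*, *TNS4* and *VTN*. The count was made after the genes were known and has no test.

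**Figure D3:**
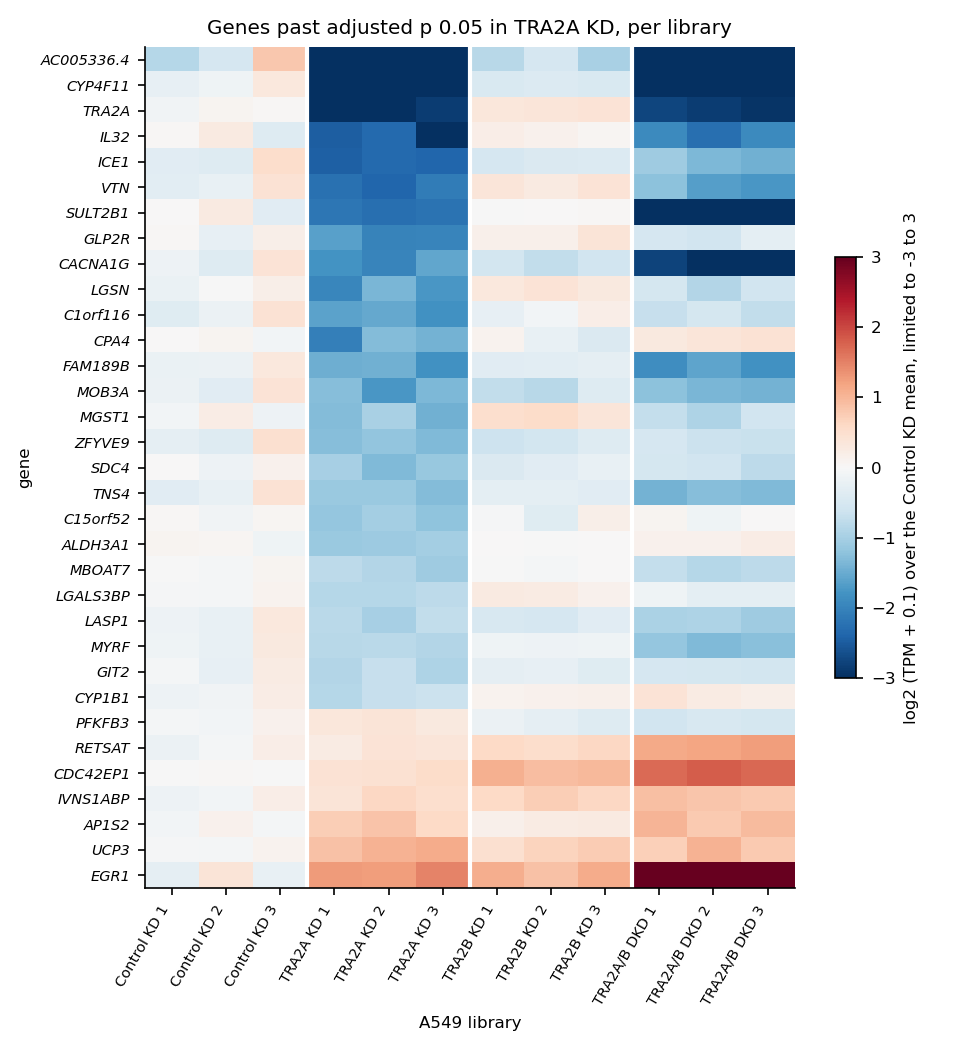
Log2 of TPM + 0.1 relative to the mean of the 3 Control KD libraries, for 33 of the 34 genes past an adjusted p of 0.05 (*RP11-98F14.11*, close to 0 in the controls, is left out), with 1 column per A549 library and colours limited to -3 and 3. The 3 *TRA2A* KD columns are blue in the lower genes, the *TRA2B* KD columns are pale in most of them, and *ALDH3A1*, *CPA4* and *C15orf52* are pale in *TRA2A/B* DKD.

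The 8 higher genes had a median log2 fold change of 0.77, and the 26 lower ones of -1.34. *IVNS1ABP*, a kelch-domain protein that binds the NS1 protein of influenza virus, had the smallest p among them, with 42.8, 44.9 and 54.1 TPM in Control KD and 61.4, 72.2 and 67.4 TPM in *TRA2A* KD (log2 fold change 0.66, SE 0.0757, adjusted p = 0.00498). *AP1S2*, a subunit of a clathrin adaptor complex, went from 11.7, 13.7 and 11.8 TPM to 20.9, 22.6 and 18.9 TPM (log2 fold change 0.89, adjusted p = 0.0195). *UCP3*, a mitochondrial carrier, went from 2.85, 2.79 and 3.14 TPM to 5.46, 6.15 and 6.41 TPM (log2 fold change 1.16, adjusted p = 0.0198).

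*PFKFB3*, which makes the activator of glycolysis fructose 2,6-bisphosphate, was the most abundant of the higher genes, with 215, 209 and 244 TPM in Control KD and 282, 290 and 275 TPM in *TRA2A* KD (log2 fold change 0.49, adjusted p = 0.0338). Its call was lost in 10 of 15 alternatives, among them TPM as deposited and quantile normalization. *RETSAT*, a retinol saturase, was at 127% of the control mean (log2 fold change 0.50) and *CDC42EP1*, an effector of the GTPase CDC42, at 140% (0.63). *EGR1*, an immediate early transcription factor, was at 0.474, 0.804 and 0.491 TPM in Control KD and at 1.56, 1.54 and 1.82 TPM in *TRA2A* KD (278% of the control mean, SE of the log2 fold change 0.224, adjusted p = 0.0226). Its controls lay below the 1 TPM of the filter, which it passed through the knockdown groups only. The call of *EGR1* was lost in 8 of 14 alternatives, among them a pseudocount of 1 TPM and quantile normalization. Its lowest log2 fold change among them was 0.82. *RP11-98F14.11*, a clone name, was at 0, 1.07 and 0 TPM and at 7.24, 11.97 and 7.31 TPM. Its fitted log2 fold change of 5.35 depends on the pseudocount and came to 3.00 with 1 TPM. It passed with an adjusted p of 0.0499 and did not pass without Control KD replicate 3 (adjusted p = 0.0677).

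Some well expressed genes lay just beyond the threshold, and the values of a selection are given as a description. The genes of smallest p beyond it were lower, and some of these are not named here. *IGFBP6*, which binds insulin-like growth factors, had a log2 fold change of -1.44 (adjusted p = 0.0513), *CCL26*, the chemokine eotaxin-3, of -1.26 (adjusted p = 0.0542) and *MUC5B*, a gel-forming airway mucin, of -1.31 (adjusted p = 0.0542). On the other side lay *MCAM*, a cell adhesion molecule (1.13, adjusted p = 0.0634), *CTGF*, a matricellular growth factor (0.83, adjusted p = 0.0716), *GJA1*, the gap junction protein connexin 43 (0.57, adjusted p = 0.0677), *IKBKG*, the regulatory subunit of the IκB kinase (0.43, adjusted p = 0.0677), and *MYADM* (0.52, adjusted p = 0.0716).

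The direct comparison of *TRA2A* KD with *TRA2B* KD asked in which genes the knockdowns of the paralogs differed. It gave 66 DEGs (0.402%), 3 higher (0.0183%) and 63 lower (0.384%) in *TRA2A* KD. With a replicate block 38 were called, and leaving out a *TRA2B* KD library left between 24 and 28. Apart from the targeted genes, the protein-coding DEGs of smallest p with a mean of at least 10 TPM in the libraries compared were *GLP2R*, *IL32*, *ICE1*, *MGST1*, *SULT2B1*, *VTN*, *SLPI* and *RPH3AL*. *GLP2R* was at 23.5, 23.5 and 27.3 TPM in *TRA2B* KD, so that it differed from *TRA2A* KD by -2.04 on the log2 scale (SE 0.155, adjusted p = 0.000174). *MGST1* was at 669, 682 and 600 TPM in *TRA2B* KD, above the 3 controls, and differed by -1.64 (adjusted p = 0.000757).

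*SLPI*, an inhibitor of leukocyte proteases, was at 14.99, 16.4 and 17.8 TPM in Control KD, at 8.55, 6.58 and 8.18 TPM in *TRA2A* KD and at 26.8, 24.7 and 26.1 TPM in *TRA2B* KD. The single knockdowns thus lay on either side of the controls, and they differed by -1.67 (SE 0.173, adjusted p = 0.00162), while the difference between *TRA2A* KD and Control KD did not pass (adjusted p = 0.0716). *RPH3AL*, a regulator of exocytosis, was at 24.3, 22.1 and 22.02 TPM in *TRA2A* KD and at 56.4, 47.1 and 47.6 TPM in *TRA2B* KD, a difference of -1.08 (adjusted p = 0.00193), and here *TRA2A* KD overlapped the controls at 24.6, 20.5 and 28.5 TPM.

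Of the 25 lower genes other than *TRA2A*, 21 were also lower in *TRA2A* KD than in *TRA2B* KD (background 0.579%), a count that uses the same *TRA2A* KD libraries again. *CACNA1G*, *LASP1*, *MOB3A* and *ZFYVE9* did not pass. In *TRA2B* KD against Control KD, which shares the controls, 0 of the 25 passed in either direction (background 0.341% at any fold) and their log2 fold changes ranged from -0.52 to 0.57. Of the 8 higher genes, *CDC42EP1*, *IVNS1ABP* and *RETSAT* passed there in the same direction. Of the 8 higher genes, *PFKFB3* alone passed between the single knockdowns (background 0.232% higher, 0.811% in both directions), at 198, 185 and 171 TPM in *TRA2B* KD (difference 0.67, adjusted p = 0.00294). *IVNS1ABP* was at 71.7, 78.7 and 72.4 TPM in *TRA2B* KD and differed by -0.09 (SE 0.0757).

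The *TRA2A* guides were also present in *TRA2A/B* DKD, and *TRA2A/B* DKD against *TRA2B* KD shares no library with *TRA2A* KD against Control KD. In that comparison, added after the first results were seen, 20 of the 25 lower genes passed in the same direction (background 13.8%) and 0 in the opposite one, in which 1645 of all 16405 genes passed. Both comparisons came from the same fit and share the estimate of spread of each gene. The count of 20 is therefore not independent of how the 25 genes were chosen. Of the 8 higher genes *AP1S2*, *CDC42EP1*, *EGR1* and *RETSAT* were higher in *TRA2A/B* DKD than in *TRA2B* KD as well and *PFKFB3* was lower. *CYP4F11* was at 12.6, 12.9 and 12.6 TPM in *TRA2B* KD and at 0.382, 0.781 and 0.544 TPM in *TRA2A/B* DKD (log2 fold change -4.45, adjusted p = 2.51e-06). *SULT2B1* went from 28.8, 29.5 and 29.8 TPM to 2.75, 1.94 and 3.27 TPM (-3.61, adjusted p = 4.09e-06), *IL32* from 45.4, 43.4 and 41.5 TPM to 10.4, 8.12 and 10.4 TPM (-2.34, adjusted p = 5.97e-05) and *VTN* from 19.2, 18.1 and 19.7 TPM to 6.27, 4.65 and 4.35 TPM (-2.07, adjusted p = 2.35e-05).

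The 5 lower genes that did not pass there were *ALDH3A1*, *C15orf52*, *CPA4*, *CYP1B1* and *ZFYVE9*. *ALDH3A1* was at 1595, 1604 and 1703 TPM in *TRA2A/B* DKD, above the 3 controls, and *CPA4* was at 41.5, 43.3 and 45.9 TPM. Set against *TRA2A* KD itself, 9 of the 25 lower genes were higher in *TRA2A/B* DKD (background 13.2%) and 6 were lower (background 15.7%). These counts use the same *TRA2A* KD libraries again. The difference was 1.01 for *ALDH3A1* (SE 0.131, adjusted p = 0.000228) and 1.73 for *CPA4* (SE 0.191, adjusted p = 7.4e-05). It was 1.19 for *GLP2R* (adjusted p = 0.000238) and 0.87 for *ICE1* (adjusted p = 0.00339). *SULT2B1* and *CACNA1G* were lower in *TRA2A/B* DKD than in *TRA2A* KD, by -1.44 (adjusted p = 0.000803) and -1.52 (adjusted p = 0.000639).

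**Figure D4:**
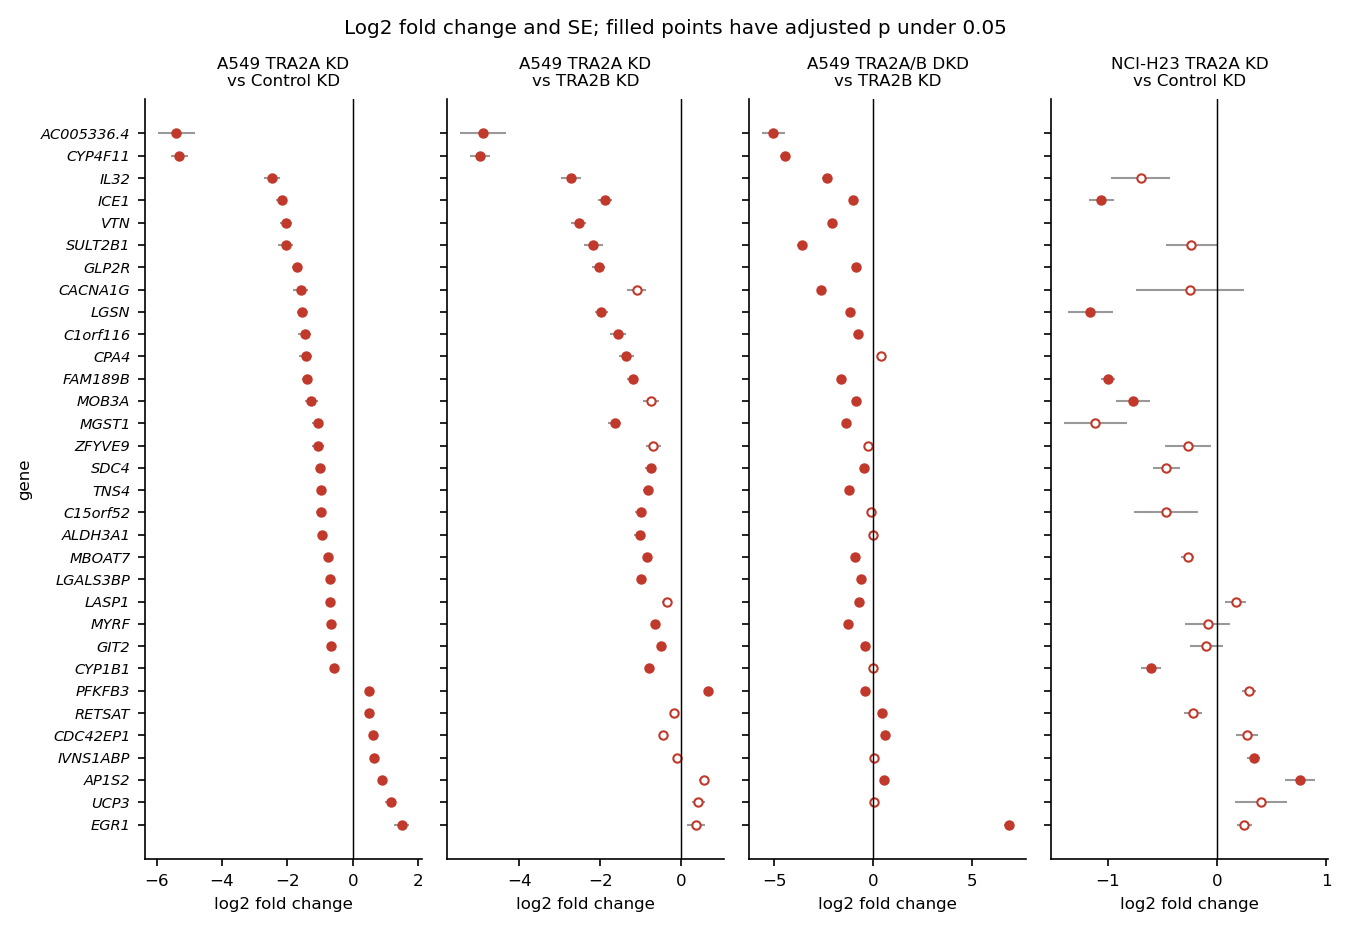
Log2 fold change with its SE of 32 genes past an adjusted p of 0.05 in A549 *TRA2A* KD (without *TRA2A* and *RP11-98F14.11*), in 4 comparisons with x axes of their own. Filled points passed at an adjusted p under 0.05, and genes with no point in the NCI-H23 panel were below its filter. The lower genes lie left of 0 in the first 2 panels, and *CYP4F11* and *AC005336.4* lie farthest left in the first 3.

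In NCI-H23, 16 of the 25 lower genes passed the filter on low values, and 5 of the 16 fell after *TRA2A* KD (background 0.601%). These were *ICE1* (10.4, 10.8 and 9.88 TPM in controls, 4.59, 5.39 and 4.62 TPM in knockdown, log2 fold change -1.06, adjusted p = 0.00152), *FAM189B* (55.7, 59.6 and 55.4 TPM to 30.3, 26.1 and 28.2 TPM, adjusted p = 3.9e-05), *LGSN* (-1.16, adjusted p = 0.0258), *MOB3A* (-0.77, adjusted p = 0.0488) and *CYP1B1* (-0.61, adjusted p = 0.0127). *CYP4F11* was under the filter there, at 0.722, 0.98 and 0.62 TPM in controls and 0.165, 0.0695 and 0.22 TPM in knockdown, and *GLP2R* was at 0 in all 6 libraries. *ALDH3A1*, at 1331 TPM or more in A549 controls, did not reach 1 TPM in NCI-H23. Of the 8 higher genes, *AP1S2* (log2 fold change 0.76, adjusted p = 0.0328) and *IVNS1ABP* (0.34, adjusted p = 0.0282) rose in NCI-H23 (background 0.374%).

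Gene lists of splicing, cell cycle and stress are given as counts beside the 0.207% of all genes that passed, a share at which lists of this size hold few or no genes. None of the 11 tested SR proteins passed (log2 fold changes -0.06 to 0.37), nor did any of 11 SR protein kinases, 56 hnRNPs and other regulators of splicing, 59 core spliceosome genes or 15 factors of nonsense-mediated decay, at 0 genes in each by limma. At an unadjusted p under 0.05 these lists held 0, 0, 10, 5 and 1 genes (background 5.76% higher and 5.52% lower). Medians were 0.15, -0.04, 0.02, 0.11 and -0.06, against 0.03 over all genes. The direction of the SR proteins was not stable, with 10 of 11 values above 0 in the reported fit, 4 of 11 with TPM as deposited and 5 of 11 without Control KD replicate 3. The 4 genes taken as RT-PCR targets of the study, *CHEK1*, *CEP192*, *OFD1* and *CNTRL*, did not pass. RT-PCR followed exon skipping, which the total abundance in TPM cannot show. *OFD1*, a centriole protein, had the largest difference with 15.03, 14.2 and 38.6 TPM in Control KD and 10.6, 9.82 and 15.1 TPM in *TRA2A* KD (log2 fold change -0.64, adjusted p = 0.448). The high value lay in Control KD replicate 3, and the groups overlapped. In NCI-H23 *OFD1* fell and passed (log2 fold change -0.75, adjusted p = 0.0211), and the other targets did not pass.

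No cell cycle gene passed in *TRA2A* KD. Of 54 G2/M genes 0 passed in limma and 18 had an unadjusted p under 0.05, all higher (background 5.76% higher and 5.52% lower), and the median log2 fold change was 0.18. Values above 0 were seen for 43 of the 54, for 52 without Control KD replicate 3 and for 29 with TPM as deposited. *NUF2*, a kinetochore protein, came closest, with 21.4, 28.9 and 21.1 TPM in Control KD and 39.7, 40.2 and 43.6 TPM in *TRA2A* KD (log2 fold change 0.95, adjusted p = 0.0828). In *TRA2A/B* DKD against *TRA2A* KD, 49 of the 54 fell (background 15.7%) with a median of -1.53. Of 43 S phase genes 0 passed in *TRA2A* KD (median 0.08, 2 at an unadjusted p under 0.05) and 38 fell in the comparison with *TRA2A/B* DKD (median -1.25).

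Of 31 p53 target genes 0 passed in *TRA2A* KD (median -0.02, 3 at an unadjusted p under 0.05), and 25 rose in *TRA2A/B* DKD against *TRA2A* KD (background 13.2%). *MDM2*, the ligase that degrades p53, was at 82.6, 64.2 and 182 TPM in Control KD and at 69.7, 55.5 and 57.0 TPM in *TRA2A* KD, with the high value in Control KD replicate 3. Of 26 ATF4 and ER stress genes 0 passed in *TRA2A* KD (6 higher and 1 lower at an unadjusted p under 0.05). In *TRA2A/B* DKD against *TRA2A* KD, 17 were higher (background 13.2%) and 4 lower (background 15.7%). The well expressed protein-coding DEGs of smallest p in that comparison were *EGR1*, *ASNS*, *ATF3*, *LMNB1*, *MORC4*, *BTG2*, *TRIB3*, *KIF18B*, *SESN2* and *CARS*. *ATF3*, a stress-induced transcription factor, was at 13.6, 12.6 and 9.12 TPM in *TRA2A* KD and at 308, 336 and 373 TPM in *TRA2A/B* DKD (difference 4.62, adjusted p = 1.95e-07), and *LMNB1*, lamin B1, went from 65.6, 73.4 and 65.8 TPM to 13.9, 13.6 and 14.09 TPM (-2.52). In all, 1853 genes (11.3%) differed, 1069 higher and 784 lower, and the split was 1626 to 477 with TPM as deposited and 928 to 1083 after quantile normalization.

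The NRF2 list held 2 genes that fell, *CYP4F11* and *ALDH3A1*, and 0 that rose among 32 tested (median 0.07, 19 values above 0). *NR0B1*, a nuclear receptor repressor, was higher without passing (11.4, 10.7 and 7.48 TPM against 13.9, 20.98 and 14.999 TPM, adjusted p = 0.19). Without Control KD replicate 3, *SRXN1*, which repairs oxidized peroxiredoxins, was added to the lower ones (log2 fold change -0.41, adjusted p = 0.0153, against -0.28 and 0.385 with all libraries). The AP-1 and immediate early list held *EGR1* alone among 28, the hypoxia list *PFKFB3* alone among 23, and the lung epithelial and A549 list *ALDH3A1* alone among 13. *DDIT4* and *CTGF* did not pass with all libraries and passed without Control KD replicate 3. No gene passed among 98 centrosome and cilium, 61 DNA damage, 15 BCL2 family, 37 interferon-stimulated, 15 cytokine, 33 sterol and fatty acid, 43 matrix and integrin and 33 histone genes.

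The values of ribosomal and respiratory chain genes depended on 1 control library. The 79 cytosolic ribosomal protein genes all had values above 0, with a median of 0.34, and 0 passed in limma (13 at an unadjusted p under 0.05). The median was 0.07 and 61 of 79 were above 0 without Control KD replicate 3, the library in which they took 8.52% of TPM. *RPL36A* shows this at 826, 1081 and 383 TPM in Control KD against 906, 1258 and 957 TPM in *TRA2A* KD. The 75 nuclear-encoded respiratory chain genes had a median of 0.35 with all libraries and 0.04 without that one, as for *COX6A1* at 510, 595 and 178 TPM against 483, 760 and 519 TPM. The 13 mitochondrially encoded genes had a median of 0.24, 0.10 without that library and -0.04 after quantile normalization.

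**Figure D5:**
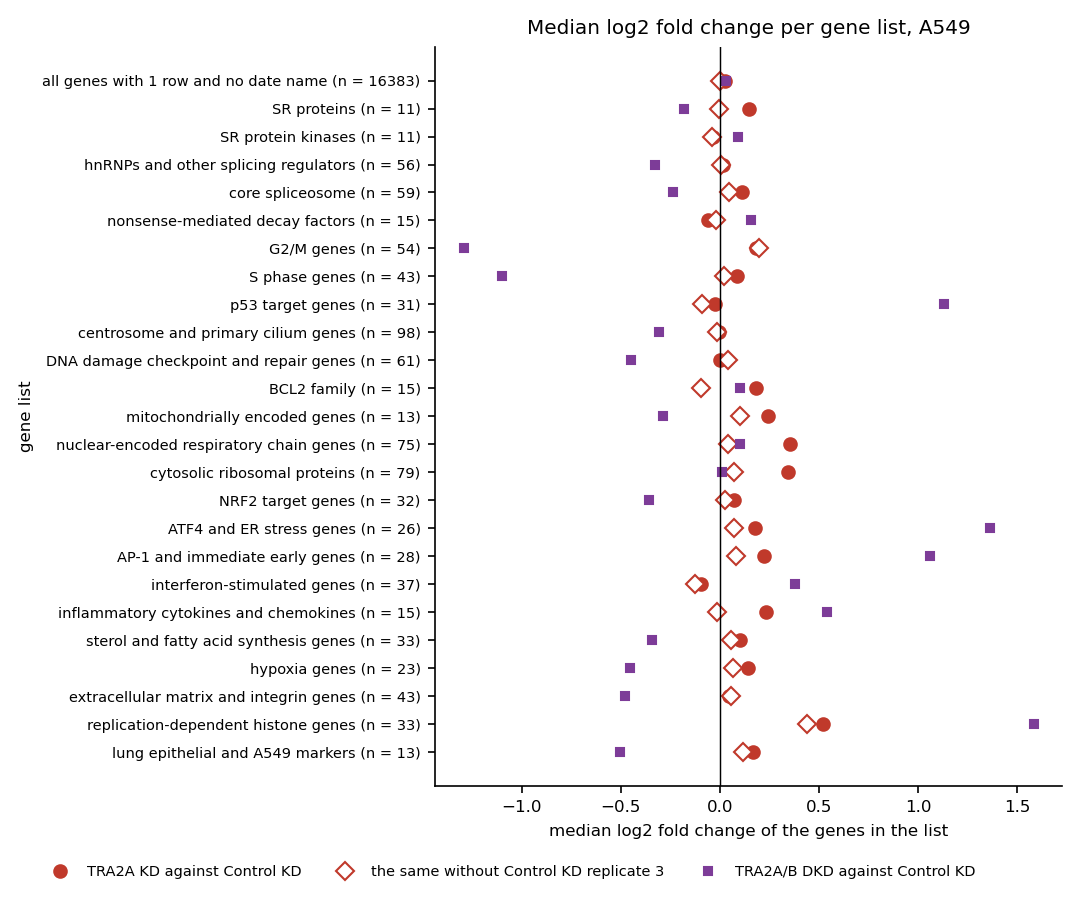
Median log2 fold change of each gene list with at least 10 tested genes, for *TRA2A* KD against Control KD (filled circles), the same without Control KD replicate 3 (open diamonds) and *TRA2A/B* DKD against Control KD (squares), which shares the controls. The circles of ribosomal protein and respiratory chain genes lie at 0.34 and 0.35 and their diamonds at 0.07 and 0.04, whereas G2/M genes lie at 0.18 and 0.20.

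Genes that start near *TRA2A* or near a guide match were read against the 0.207% of all genes that passed. Of 27 other annotated genes that start within 500 kb of the *TRA2A* start, 8 were tested, among them *KLHL7*, *MALSU1*, *IGF2BP3* and *CCDC126*, and 0 passed in limma (smallest adjusted p 0.442, log2 fold changes -0.45 to 1.52). Guide isg1 had 11 and isg2 242 genome matches with up to 3 mismatches and an NGG PAM. Of 24 genes other than *TRA2A* that start within 1 kb of one, 16 were tested and 0 passed (smallest adjusted p 0.466). Each of the 16 lies near a match with 3 mismatches. *ENSG00000223429*, which starts 423 bases from the exact isg2 match on chromosome 1, had no values here and was not tested.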

How the data were processed

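Gene-level TPM were deposited by the authors. Per the labels and methods they come from kallisto 0.48.0 on Gencode v34 (hg38), from poly(A)-selected directional paired-end libraries. The TPM are unscaled between libraries, and kallisto divides reads shared by paralogs by estimation. TPM keep no depth, and the spread between 3 libraries stands for precision. Nothing in the labels says that these came from separate cultures.

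Between-library scaling of the kept TPM used log ratios averaged after trimming 30% of ratios and 5% of abundances, without weights. Values were then taken as log2(TPM + 0.1), so that fold changes of low genes are understated. The 12 A549 libraries were fitted in 1 model with limma 3.58.1 (R 4.3.3, empirical Bayes with a trend), two-sided, with Benjamini-Hochberg adjustment over 16405 genes. The method was tested on simulated data with large changes only and no library that stood apart. Smaller changes and a library such as Control KD replicate 3 were not covered. The authors' own test (limma-voom) needs counts and was not repeated, and A549 and NCI-H23 tables, normalized separately, were fitted separately. Members, gene lists and tests were chosen with earlier results of these data known. Genes named are *TRA2A*, *TRA2B*, all with an adjusted p under 0.05, the SR proteins and RT-PCR targets as groups, up to 3 of largest change per list, up to 10 well expressed (at least 10 TPM) per direction or comparison, and genes near *TRA2A* or a guide match. *IGFBP6*, *CCL26*, *MUC5B*, *SRXN1* and *DDIT4* fall outside this rule and were chosen after their values were seen. Names in the form of a date, 22 among those kept, were never named. List medians leave out date names and repeated names. Positions and guide matches come from Gencode v44 and hg38, where 33975 of 55904 distinct names were found by name and 1427 by an older one. Figures were drawn with matplotlib 3.10.9. Tables of LN229 and LN319 were not used here.

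Alternatives were pseudocounts of 0.5 and 1, no filter or a minimum of 5 TPM, TPM as deposited, quantile normalization, only the compared groups, a replicate block, library weights, no minimum fold change, and each library left out.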

Additional observations from a re-analysis of the deposited data

How the results depend on the processing

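The 19 DEGs of *TRA2A* KD against Control KD became 32 with TPM as deposited, which moved the median of all genes from 0.03 to -0.12, 207 with library weights, 1 with only the 6 libraries compared and 34 with no minimum fold change. They ranged from 13 to 54 when 1 library was left out. *TRA2A* kept its log2 fold change of -3.28 in the fit of 6 libraries but not its call (adjusted p = 0.0939), and was called in each of the other 14 alternatives. *TRA2B* was called in none of 15.

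The 66 DEGs of *TRA2A* KD against *TRA2B* KD became 38 with the replicate block, 284 with library weights and 133 with no minimum fold change, and ranged from 24 to 51 when 1 library was left out. Without a minimum fold change *TRA2A/B* DKD differed from *TRA2A* KD in 4742 genes and from *TRA2B* KD in 3910. The latter comparison had 735 higher and 683 lower DEGs, and 1000 and 434 with TPM as deposited. The replicate numbers share no stated culture or day. Deviations of same-numbered *TRA2A* KD and Control KD libraries correlated at r = 0.0206, 0.123 and 0.13, and 2 of the 3 *TRA2A* KD libraries correlated best with the control of their own number, a hint from the data only. Those of *TRA2A* KD and *TRA2B* KD correlated at r = 0.0397, 0.0791 and 0.121. Those of *TRA2A/B* DKD and *TRA2A* KD correlated at r = 0.0372, -0.0896 and -0.105. With the replicate block 15 DEGs were called in place of 19, all among the 19, and 12 of the 34 genes that passed at any fold did not.

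Precision rests on 3 libraries a group. Control KD replicate 3 had a library weight of 0.0826, against 0.464 to 3.56 in the other 5. Genes close to 1 TPM, and those whose reads are shared with close copies, are the least certain.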
